A study of Mus musculus with 6 samples.

Results

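The cell cycle genes described here are 41 genes taken by symbol from the 46983 genes in the deposited count table. They comprise proliferation markers, cyclins, cyclin-dependent kinases (CDKs) and their inhibitors, genes of DNA replication, mitotic kinases and checkpoint genes, and genes of the centromere and spindle. The rule used the names only and no measured value, though the list was drawn up with earlier results of these data known. RNA was sequenced from whole mouse hearts at embryonic day E13.5, 1 heart per library, with 3 mutants (replicates 1, 5 and 10) and 3 controls (replicates 2, 3 and 5). Mutants carried 1 Tnnt2 Cre allele and were homozygous for the floxed Wt1 allele. Controls carried no Cre and, by the study's methods, the same floxed Wt1 alleles, although the labels call them wild type, and the labels give the strain as C57BL/6 x DBA/2. The Tnnt2 promoter drives Cre in cardiomyocytes, and the study's own reporter crosses found recombination in part of the epicardium as well, which limits the model as a deletion in myocardium alone. Each value below is for a whole heart, so all cell types of the organ add to it, and fewer cycling cells cannot be told apart from less RNA per cell.

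A cell enters the cycle when D-type cyclins activate Cdk4 and Cdk6, which inactivate the retinoblastoma proteins and release the E2F factors. E2F targets such as the Mcm helicase subunits, Pcna and the ribonucleotide reductase subunits Rrm1 and Rrm2 then supply the machinery of DNA replication, while cyclin E and cyclin A with Cdk2 drive S phase. Cyclin B with Cdk1, the Aurora kinases, Plk1 and the checkpoint genes carry the cell through mitosis, and the inhibitors Cdkn1a, Cdkn1b and Cdkn2c restrain the kinases. Cardiomyocytes divide throughout fetal life, and the compact layer of the ventricle grows largely through that division. The comparison asks whether the RNA of this machinery differed in hearts lacking Wt1, a zinc-finger transcription factor, in the Tnnt2 lineage.

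Total counts were between 44244665 (control replicate 5) and 56373393 per heart, and every one of the 41 genes had at least 1188 counts in every heart, so none of their values rested on few reads. Wt1 itself, the targeted gene, had 2251, 1891 and 879 counts in controls 2, 3 and 5 and 921, 1746 and 1796 counts in mutants 1, 5 and 10. The groups overlapped, and Wt1 RNA did not separate the labels (log2 fold change −0.10, SE 0.31, edgeR adjusted p = 0.990). The count covers the whole gene and whole organ, and which exons were deleted was not examined here. Markers of cardiomyocytes were abundant in all hearts, with a summed level of 33208 to 36291 CPM (counts per 1000000, TMM-normalized) in controls and 35749 to 39995 CPM in mutants over 16 genes. None of the markers listed for other cell types was at 0 in all 6 hearts. The summed level of 10 erythroid genes was 39151 CPM in control 5 and 42447 CPM in mutant 10 against 12395 to 16773 CPM in the other 4 hearts, and that of 8 hepatocyte genes was 776 CPM in control 3 against at most 20.8 CPM elsewhere.

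The cell cycle genes were expressed well above the typical gene. Their median level per length was 56.4 FPKM (counts per gene length and library total, as deposited, mean of 6 hearts) against 8.04 FPKM over the 17473 genes tested, and the lowest of them lay above 58.8% of those genes. Cdk4, the kinase partner of the D cyclins, had the highest FPKM at 459 (range over hearts 402 to 492), and its range did not reach that of the next gene, the D-type cyclin Ccnd3 at 288 FPKM (263 to 324). Then came Ccnd2 (218 FPKM), the replication clamp Pcna (216 FPKM) and Top2a (205 FPKM), the topoisomerase that untangles chromosomes, whose ranges overlapped. At the other end stood Cdk6 (12.6 FPKM), then the inhibitor Cdkn2c and E2f1 (16.7 FPKM). Cdk4 thus exceeded its relative Cdk6 in every heart. The lengths behind the deposited FPKM were shorter than the longest annotated transcript for most of these genes, with a median ratio of 1.91. Divided by the longest transcript instead, Cdk4 remained at rank 1 and Cdk6 at rank 41, while Mki67, which encodes the Ki-67 antigen used to stain cycling cells, moved from rank 37 (21.8 FPKM) to rank 29 and Cdk1 from rank 7 to rank 20.

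**Figure D1:**
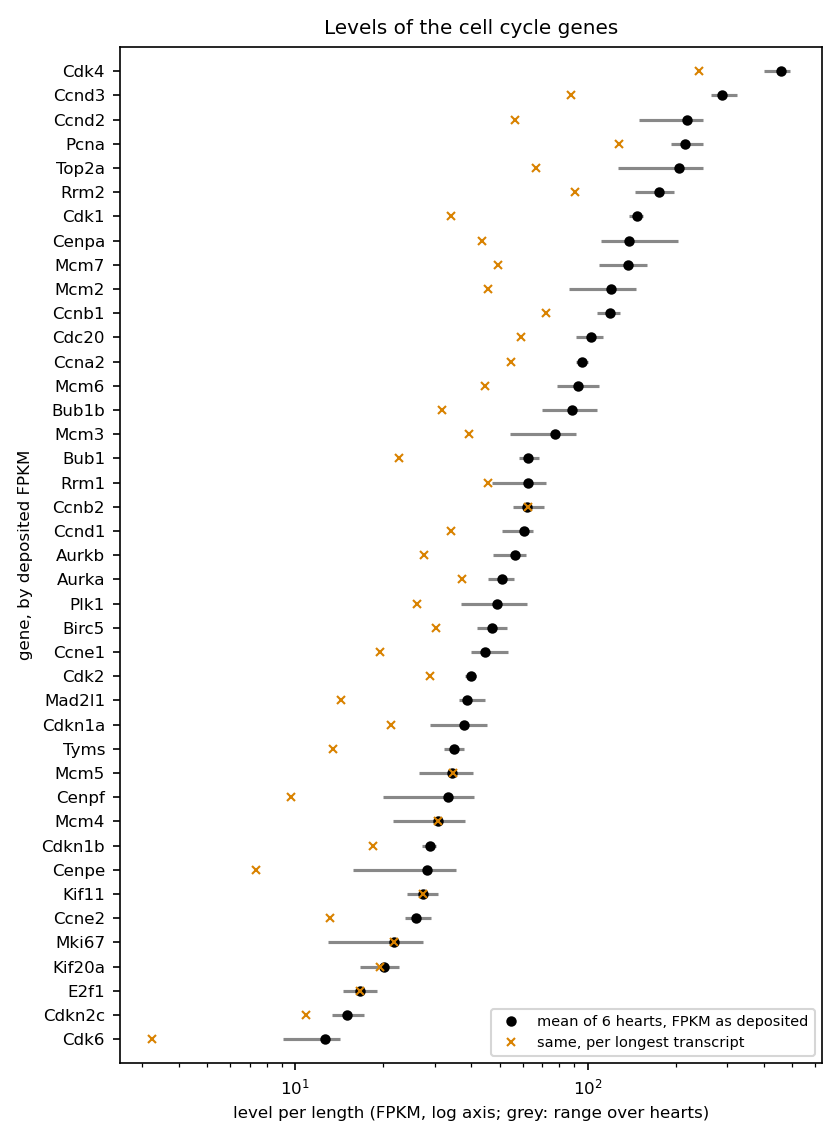
Level per length of each of the 41 genes on a log axis in FPKM, with black points for the mean of the 6 hearts as deposited, grey lines for the range over hearts and orange crosses for the same mean per longest annotated transcript. Cdk4 has the highest level on both scales (459 FPKM as deposited) and Cdk6 the lowest (12.6 FPKM as deposited).

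Promoter sequence is shown for 5 genes because the genes that rise and fall together through the cycle are known to share short elements near the start site. Late genes of G2 and mitosis often carry the CHR element (cell cycle genes homology region, letters TTTGAA) together with CCAAT boxes, and genes of S phase often carry E2F elements (searched as TTCCCGC and TTGGCGC). All letters were searched on both strands in windows of 250 bases before to 50 bases after the RefSeq start on GRCm38.p6, which matched 34 of the 41 genes. The 250 bases before the start are printed on the gene's strand, 5′ to 3′, with the letters that matched in either orientation in capitals.
Mki67, chr7:135716380-135716629, minus strand: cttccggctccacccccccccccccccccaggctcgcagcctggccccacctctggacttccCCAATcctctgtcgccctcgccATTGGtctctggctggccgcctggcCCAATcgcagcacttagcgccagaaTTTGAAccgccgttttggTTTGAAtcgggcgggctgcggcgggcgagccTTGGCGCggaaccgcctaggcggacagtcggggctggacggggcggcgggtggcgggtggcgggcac
Top2a, chr11:99024190-99024439, minus strand: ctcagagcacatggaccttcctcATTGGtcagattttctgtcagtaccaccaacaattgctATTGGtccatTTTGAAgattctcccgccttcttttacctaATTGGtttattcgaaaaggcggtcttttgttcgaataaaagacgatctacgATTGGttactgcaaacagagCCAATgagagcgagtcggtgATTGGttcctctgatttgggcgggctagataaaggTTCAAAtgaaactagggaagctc
Mcm2, chr6:88898781-88899030, minus strand: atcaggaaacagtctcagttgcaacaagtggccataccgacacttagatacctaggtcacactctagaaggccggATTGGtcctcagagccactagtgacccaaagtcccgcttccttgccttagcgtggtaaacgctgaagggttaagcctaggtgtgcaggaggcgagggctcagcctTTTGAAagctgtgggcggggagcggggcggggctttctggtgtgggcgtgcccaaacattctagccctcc
Mcm6, chr1:128359706-128359955, minus strand: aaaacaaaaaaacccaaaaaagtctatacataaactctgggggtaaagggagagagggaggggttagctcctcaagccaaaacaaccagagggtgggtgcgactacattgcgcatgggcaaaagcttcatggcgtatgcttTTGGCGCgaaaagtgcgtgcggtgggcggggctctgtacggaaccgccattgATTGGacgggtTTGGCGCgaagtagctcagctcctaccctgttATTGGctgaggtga
Cdkn1a, chr17:29090729-29090978, plus strand: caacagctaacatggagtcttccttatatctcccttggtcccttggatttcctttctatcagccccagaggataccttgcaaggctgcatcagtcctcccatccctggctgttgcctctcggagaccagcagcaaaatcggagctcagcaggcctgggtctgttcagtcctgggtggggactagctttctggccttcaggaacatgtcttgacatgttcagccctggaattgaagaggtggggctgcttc
Mki67 held both kinds of element, Top2a and Mcm2 the CHR with CCAAT, Mcm6 the E2F letters TTGGCGC with CCAAT, and the window of Cdkn1a, whose product inhibits CDKs and is induced by p53, held none of them. Cdkn1a has 2 windows in the annotation and only the first listed was used, so its other start is not covered. CHR letters were in 12 of the 34 windows (35.3%) against 18.1% of 27025 promoter windows in the annotation, and CCAAT was in 24 (70.6%) against 37.9%. Both stood together in 12 windows (35.3%, against 7.12% of all windows), those of Aurka, Bub1b, Ccnb2, Cdc20, Cdk1, Cenpa, Cenpf, Kif11, Mcm2, Mki67, Plk1 and Top2a. An E2F element of either spelling was in 10 windows (29.4% against 6.93%), those of Ccnb1, Cdk1, Cdk2, Cdkn2c, Mcm3, Mcm5, Mcm6, Mcm7, Mki67 and Rrm1. A CCAAT box and TTGGCGC shared letters in 2 of the windows. The 250 bases of Cdk6, Cdkn2c, E2f1 and Mcm7 lay within the gene as annotated, so elements before an earlier start would be missed. A match describes letters in a window and not binding.

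No cell cycle gene passed the test between mutant and control hearts. In edgeR's quasi-likelihood test over 17473 genes, 0 of the 41 had an adjusted p under 0.05 (adjusted p 0.935 to 0.999), as did 0% of all genes tested. At an unadjusted p under 0.05 the number was still 0 of 41, against 5.73% of all genes (2.59% with mutants lower, 3.14% with mutants higher). DESeq2, the tool of the study's methods, also gave 0 of 41 at either threshold, against 0.66% of all genes at an adjusted p under 0.05 and 4.32% at an unadjusted one. The fold changes were small: on the log2 scale they ran from −0.28 (Cenpa, the centromeric histone) to 0.28 (Cdkn1a), with a median of −0.02 against −0.001 over all genes and a median SE of 0.13. There were 29 genes with a lower and 12 with a higher mutant value, against 8774 lower and 8699 higher over all genes tested. For 36 of the 41 the 95% interval lay within a 1.5-fold change in either direction, and for all 41 within a 2-fold change. The exceptions to the narrower bound were Mki67, Cdkn1a, Cenpa, Cenpe and Cenpf, with bounds reaching from −0.74 to 0.64 on the log2 scale.

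**Figure D2:**
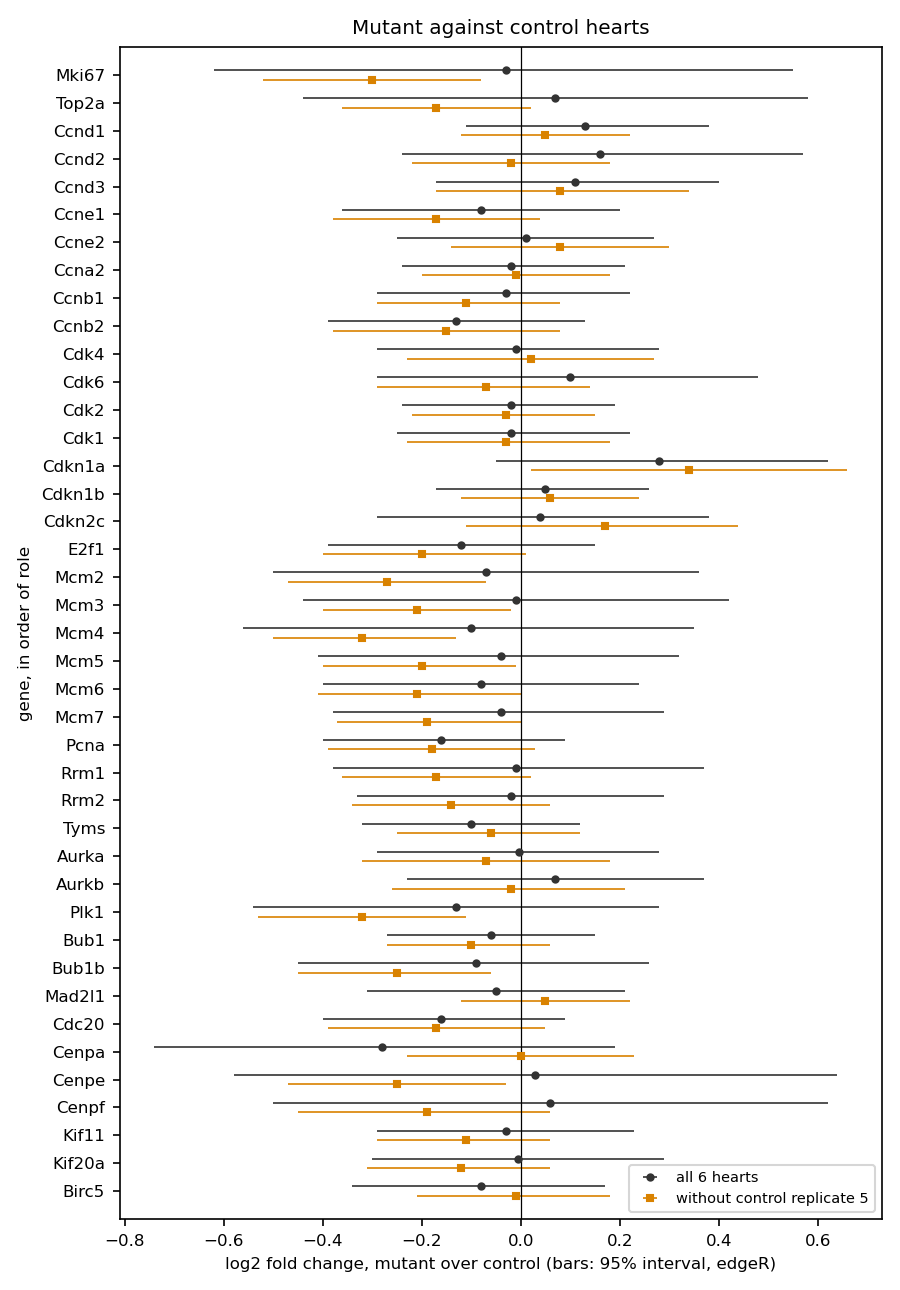
Log2 fold change of mutant over control for each of the 41 genes with its 95% interval (edgeR), in black with all 6 hearts and in orange without control replicate 5. With all hearts every interval crosses 0, while without control 5 the intervals are narrower and 8 genes lie below 0 and Cdkn1a above it with their whole interval.

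The proliferation markers show how the hearts lay. Mki67 (chromosome 7, positions 135689784 to 135716361 of GRCm38, minus strand) had 264, 270 and 130 CPM in controls 2, 3 and 5 and 206, 240 and 203 CPM in mutants 1, 5 and 10. Controls 2 and 3 were above every mutant heart and control 5 was below every one, so the control mean of 221 ± 78.8 CPM (SD, n = 3) and the mutant mean of 216 ± 20.7 CPM (n = 3) were close (log2 fold change −0.03, 95% interval −0.62 to 0.55). Top2a followed the same order, with 413, 387 and 217 CPM in the controls and 346, 373 and 349 CPM in the mutants. Its fold change was 0.07 on the log2 scale (SE 0.22, edgeR adjusted p = 0.990).

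The CDK inhibitors all had a higher mutant mean, though none passed the test and 2 of the 3 turned in some fits. Cdkn1b stood at −0.002 when the trend with gene length was removed from each heart, and Cdkn2c at −0.003, −0.02 and −0.05 without control 2, control 3 and mutant 10. Cdkn1a (chromosome 17, positions 29090976 to 29100727 of GRCm38, plus strand) had 33.3, 43.9 and 43.4 CPM in controls 2, 3 and 5 and 44.3, 46.1 and 56.0 CPM in mutants 1, 5 and 10. It was the 1 gene of the 41 whose groups did not overlap, against 11.2% of all genes tested (6.61% with mutants higher), and the gap between control 3 and mutant 1 was small. Its log2 fold change of 0.28 (SE 0.15, 95% interval −0.05 to 0.62) had an edgeR p of 0.0895 before and 0.935 after adjustment. Cdkn1b, which encodes p27, the inhibitor linked to cell cycle exit, had 86.9, 77.3 and 83.4 CPM in the controls and 82.6, 86.7 and 86.7 CPM in the mutants. Cdkn2c, an inhibitor of Cdk4 and Cdk6, had 24.8, 23.9 and 30.9 CPM against 23.5, 27.5 and 30.9 CPM. In both the groups overlapped, and their 95% intervals (−0.17 to 0.26 and −0.29 to 0.38) include no change.

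**Figure D3:**
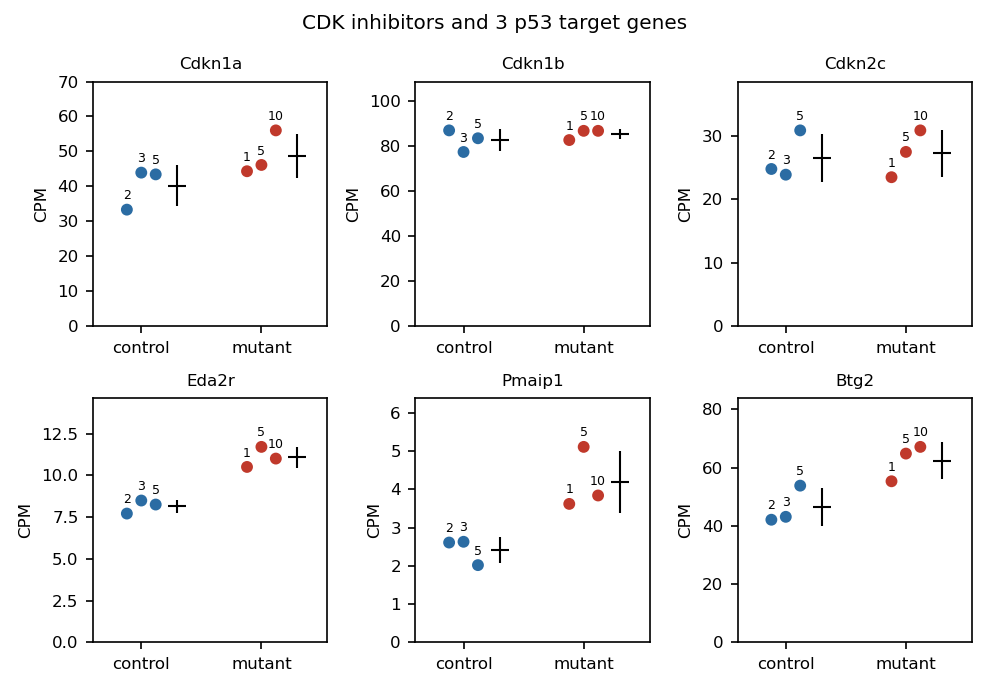
CPM in each heart (points, numbered by replicate; blue for control, red for mutant) of the 3 CDK inhibitors and of Eda2r, Pmaip1 and Btg2, with the mean and SD of each group (n = 3) as black bars. Cdkn1a runs from 33.3 to 43.9 CPM in controls and from 44.3 to 56.0 CPM in mutants, and Cdkn1b and Cdkn2c overlap.

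Cyclins and CDKs lay close to no difference. The 8 cyclins had a median log2 fold change of −0.003 (4 higher, 4 lower, range −0.13 to 0.16), and the 4 kinases one of −0.01 (range −0.02 to 0.10). Ccna2, the cyclin of S phase and G2, averaged 163 ± 4.28 CPM in controls and 161 ± 10.3 CPM in mutants. Cdk2 averaged 94.8 ± 1.65 and 93.3 ± 5.96 CPM, and Cdk1, the mitotic kinase, 150 ± 2.89 and 148 ± 12.7 CPM (all n = 3). The 95% intervals of these 3 log2 fold changes lay between −0.25 and 0.22. Ccnd2 and Cdk6 had wider controls, from 246 to 385 CPM and from 27.0 to 41.1 CPM, with the lowest value in control 5 each time. Where genes on opposite strands share exon bases, the counts of both could be affected, since the strand setting of the counting was not stated. This touches 12 of the genes, counting the gene in the table that overlaps each most, 7 of them with 0.547% to 7.25% of their exon bases and 5 with more, namely Kif20a (29.3% of exon bases shared with Cdc23), Ccnd1 (23.4%, LTO1), Cdk4 (19.7%, Tspan31), Ccne2 (17.4%, Ints8) and Ccna2 (12.5%, Exosc9).

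All 11 genes of DNA replication had a lower mutant mean by a small margin, but 8 of them, the 6 Mcm genes, Rrm1 and Rrm2, turned higher when control 2 or control 3 was left out (up to 0.11, Mcm3), and Rrm1 stood at 0.005 with no filter on low counts. Their log2 fold changes ran from −0.16 (Pcna) to −0.01, with a median of −0.07 and a smallest edgeR adjusted p of 0.971. Summed over the 11 genes, the level was 1778, 1818 and 1315 CPM in controls 2, 3 and 5 and 1496, 1540 and 1669 CPM in mutants 1, 5 and 10. The mutants again lay below controls 2 and 3 and above control 5. Mcm4 and Mcm2, subunits of the replicative helicase, are given in full as examples chosen after their values were seen. Mcm4 had 135, 131 and 77.9 CPM in controls and 99.3, 113 and 108 CPM in mutants. Mcm2 had 191, 184 and 116 CPM against 153, 145 and 168 CPM. Pcna and Tyms, the thymidylate synthase, did not show the low value in control 5, with 199 and 57.1 CPM there, against 199 and 51.5 CPM in control 2 and 218 and 54.5 CPM in control 3.

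The mitotic genes were mixed. Of the 7 mitotic kinases and checkpoint genes 6 had a lower mutant value (median −0.06 on the log2 scale), and of the 6 genes of the centromere and spindle 4 did (median −0.02). Plk1, the kinase that starts mitosis and centrosome maturation, averaged 59.7 ± 14.7 CPM in controls and 54.5 ± 4.35 CPM in mutants, and Bub1b, a spindle checkpoint kinase, 120 ± 24.9 and 113 ± 6.11 CPM. Cdc20, the activator of the anaphase-promoting complex, averaged 112 ± 2.74 and 100 ± 10.6 CPM (log2 fold change −0.16, SE 0.11). Cenpa went its own way: it had 153, 147 and 245 CPM in controls 2, 3 and 5 and 163, 132 and 155 CPM in mutants, so that its lower mutant mean rested on control 5. Cenpe, a kinesin of the kinetochore, was the reverse, with 71.5, 67.6 and 32.3 CPM in controls and 56.2, 65.2 and 53.7 CPM in mutants (Cenpa and Cenpe chosen after their values were seen).

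**Figure D4:**
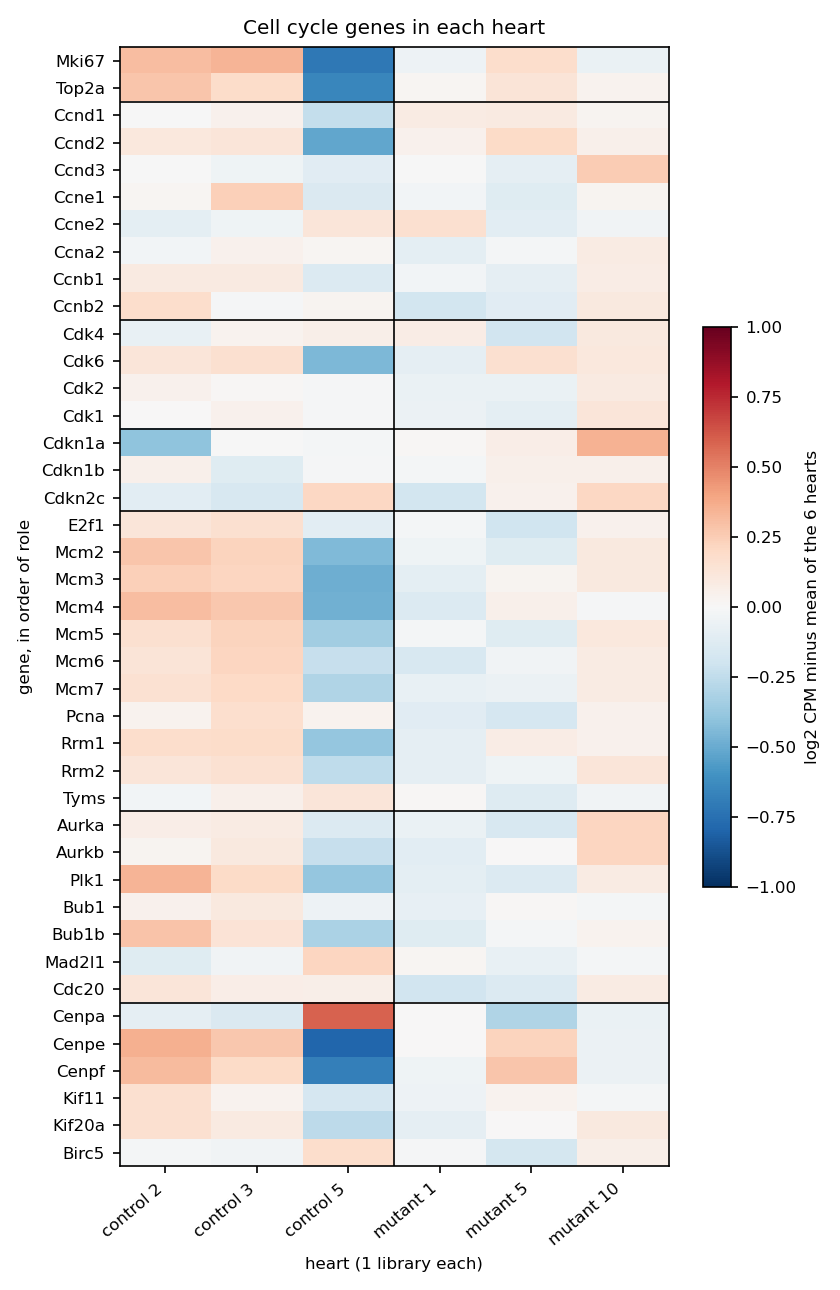
Log2 CPM of each gene in each heart, minus its mean over the 6 hearts, with red above and blue below that mean; genes stand in order of role, from proliferation markers at the top to centromere, spindle and Birc5 at the bottom, separated by lines. Control 5 is the lowest of the 6 hearts for 23 of the 41 genes, with Mki67, Top2a, Cenpe and Cenpf deepest, and the highest for 5, with Cenpa strongest.

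Control 5 was low for many of the cell cycle genes. It was the lowest of the 6 hearts for 23 of the 41 genes, against 31.1% of all genes, and the highest for 5, against 29.3%. The summed level of the 41 genes was 6048 and 6063 CPM in controls 2 and 3, 4959 CPM in control 5, and 5483, 5539 and 5902 CPM in mutants 1, 5 and 10. Against the mean of controls 2 and 3, control 5 had a median log2 difference of −0.26 over the 41 genes and 0.003 over all genes tested. The difference was deepest for Cenpe (−1.11), Mki67 (−1.03), Cenpf (−0.95), Top2a (−0.88) and Mcm4 (−0.77), and it was positive for 10 genes, with Cenpa (0.71), Cdkn2c (0.35) and Mad2l1 (0.29) the highest. The median coefficient of variation among controls was above the 16.8% of all genes in 3 role groups, the proliferation markers (33.5%), the centromere and spindle genes (22.6%) and the replication genes (18.2%), and below it in 4, the CDK inhibitors (14.4%), the mitotic kinases and checkpoint genes (11.7%), the cyclins (8.36%) and the CDKs (3.45%).

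Control 5 was lowest for the cell cycle genes with the longest transcripts, but the median over the 41 genes did not shrink when the length trend was removed. Over 11774 well-expressed genes the difference of control 5 from controls 2 and 3 had a Spearman correlation of −0.606 with the longest annotated transcript, and over the 41 cell cycle genes one of −0.362. These are correlations across genes of the same libraries, given as descriptions, and genes are not independent replicates. The 10 cell cycle genes with transcripts over 4500 bases, Mki67, Top2a, Cenpe and Cenpf among them, had a median log2 difference of −0.61, against −0.21 for the 15 under 3000 bases and −0.19 for the 16 between. After the trend with transcript length was removed from each heart, the median over the 41 genes was −0.30 (−0.26 before) and that over all genes 0.01. The role groups moved differently with that removal. The replication genes went from −0.48 to −0.51 and the mitotic kinases and checkpoint genes from −0.21 to −0.39, while the proliferation markers went from −0.96 to −0.54 and the centromere and spindle genes from −0.33 to −0.19. Control 5 also had a high erythroid level, the lowest total count and the lowest summed markers of epicardium (298 CPM, against 342 to 609 CPM in the other hearts), endothelium and endocardium (981 against 1151 to 1521 CPM), fibroblasts and cushion mesenchyme (3241 against 4236 to 5658 CPM) and cardiomyocytes (33208 against 34775 to 39995 CPM). Mutant 10 also had a high erythroid level, and its cell cycle sum was the highest of the 3 mutants (5902 CPM). The part of erythroid content, total count and the cell type markers in the low cell cycle values of control 5 was not tested.

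**Figure D5:**
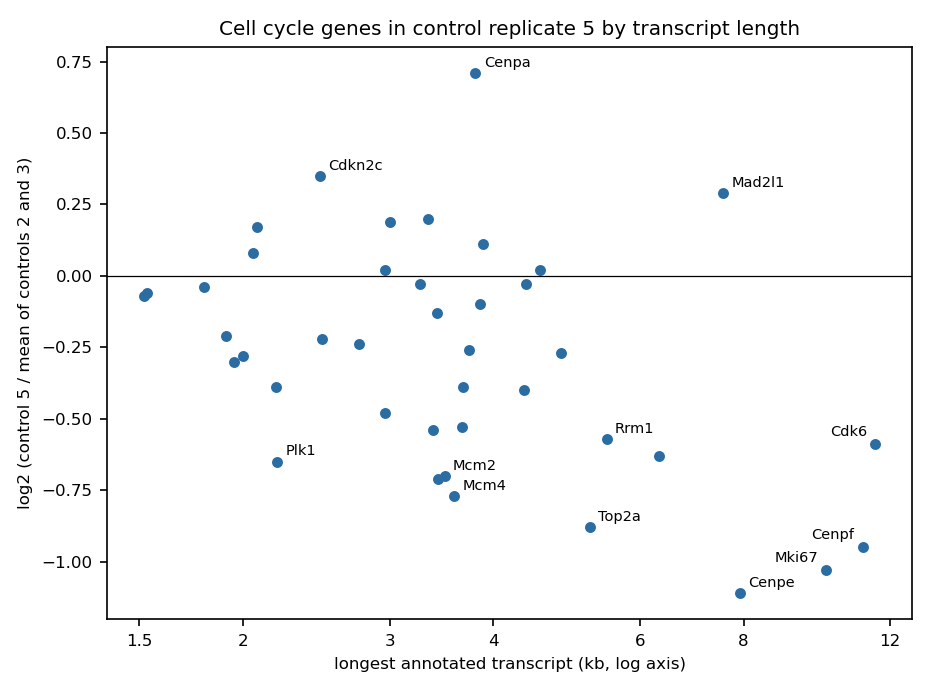
For each of the 41 genes, the log2 difference of control 5 from the mean of controls 2 and 3 against the length of its longest annotated transcript in kilobases (log axis). Points tend downward to the right (Spearman −0.362), from Cdkn2c (0.35) to Cenpe (−1.11), with Cenpa (0.71) and Mad2l1 (0.29) above the rest of their length.

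Without control 5, which leaves 2 controls against 3 mutants, the genes leaned lower in the mutants. Control 5 was the lowest of the 6 hearts for 23 of the 41 genes, against 31.1% of all genes. Its omission raises the control mean of those 23 genes, so a shift toward lower mutant values was built into this choice of heart. Leaving out any other heart gave 0 of 41 at an unadjusted p under 0.05 (edgeR). The median log2 fold change without control 5 was −0.11 (0.004 over all genes), with 32 genes lower and 9 higher, from −0.32 to 0.34. Of the genes tested with all hearts, 8570 were lower and 8903 higher in that fit. No gene passed an adjusted p under 0.05 in edgeR (0 of 41, against 0.247% of all genes), and the smallest adjusted p was 0.192. At an unadjusted p under 0.05, 8 of 41 were lower (19.5%, against 5.69% of all genes) and 1 was higher (2.44%, against 6.54%). The lower ones were the helicase subunits Mcm2 (−0.27), Mcm3 (−0.21), Mcm4 (−0.32) and Mcm5 (−0.20), Mki67 (−0.30), Plk1 (−0.32), Bub1b (−0.25) and Cenpe (−0.25), and the higher one was Cdkn1a (0.34, SE 0.14). In DESeq2 without control 5, Mcm4 alone of the 41 passed the adjusted threshold (log2 fold change −0.32, adjusted p = 0.0286), against 2.52% of all genes. At an unadjusted p, DESeq2 gave 12 of 41 lower (4.06% of all genes) and Cdkn1a higher (4.52%). The groups of 18 genes then did not overlap, against 30.2% of all genes, with 17 lower in mutants (14.5% of all genes) and Cdkn1a higher (15.7%). The 17 include Mki67, Top2a, E2f1, Mcm2 to Mcm7, Rrm1, Rrm2, Plk1, Bub1b and Cenpe.

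The fits were repeated with the length trend removed. With the trend of transcript length removed and control 5 left out, 14 of 41 were lower at an unadjusted p under 0.05, against 6.54% of all genes, and 1 was higher, against 6.91%, with a median of −0.12 and 0 at an adjusted p under 0.05 (0.203% of all genes). With all 6 hearts and the same removal, Cdkn1a alone had an unadjusted p under 0.05 (0.0409, edgeR), 1 of 41 against 3.87% of all genes higher and 7.25% in either direction. The median over the 41 genes in that fit was −0.05, with 0 of 41 lower at an unadjusted p under 0.05, against 3.38% of all genes. Leaving out control 5 and mutant 10, the hearts with high erythroid markers, gave a median of −0.15 and 15 of 41 lower at an unadjusted p under 0.05, against 5.1% of all genes, with 0 of 41 past the adjusted threshold (0.0511% of all genes). Control 5 had the lowest summed level of the 41 genes among controls (4959 CPM) and mutant 10 the highest among mutants (5902 CPM). Their omission thus favours lower mutant values by the choice of hearts itself, and it leaves controls 2 and 3 against mutants 1 and 5. Grouped by promoter letters, the median with all 6 hearts was −0.05 for the 12 genes with the CHR letters, −0.03 for the 10 with E2F letters and −0.04 for the 14 with neither. Without control 5 it was −0.17 for those with the CHR letters (11 lower), −0.18 for those with E2F letters (9 lower) and −0.07 for those with neither (9 lower). No test was made between these groups, and those with CHR and with E2F letters share Mki67 and Cdk1. The group with neither includes E2f1 and Cdk6, whose windows lay within the gene as annotated, so their class is uncertain.

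Other genes of the cell cycle, 172 in 6 lists, were counted in the same way. All 172 passed the filter, 0 had an adjusted p under 0.05 in edgeR or DESeq2, and 4 were higher and 4 lower at an unadjusted p under 0.05 (3.14% and 2.59% of all genes), with 57 higher and 115 lower in sign and a median of −0.06 on the log2 scale. Over all genes tested 8699 were higher and 8774 lower in sign. Counts of signs here and below are descriptions, since genes are not independent replicates. Without control 5 the split was 9 higher and 27 lower, against 6.54% and 5.69% of all genes. Among 46 genes of origin licensing and replication 37 were lower in sign and 1 passed the unadjusted threshold in that direction, Mcm8, a helicase of DNA repair (16.6, 16.8 and 13.4 CPM in controls, 11.7, 12.2 and 11.6 CPM in mutants). Its groups did not overlap (log2 fold change −0.40, SE 0.13, edgeR adjusted p = 0.688). The 1 in the other direction was Rrm2b, the p53-inducible ribonucleotide reductase subunit (0.29, SE 0.10, adjusted p = 0.762 in edgeR). Among 56 kinetochore, spindle and checkpoint genes 44 were lower in sign, with Pttg1, the securin (−0.48, SE 0.20), and Zwilch, of the RZZ complex (−0.22, SE 0.10), at unadjusted p values of 0.0445 and 0.0489 in edgeR. Without control 5, Pttg1 stood at −0.24 with an unadjusted edgeR p of 0.109. Among 13 cyclins, CDKs and activators 11 were lower in sign, with the phosphatase Cdc25c at −0.24 (SE 0.10) and the CDK subunit Cks1b at −0.16 (SE 0.12; −0.06 without control 5). The 23 inhibitors, pocket proteins and E2F genes were even (11 higher, 12 lower, median −0.01), with Cdkn2a at 0.616 CPM or less in every heart and Cdkn3 at −0.24 (SE 0.16; −0.06 without control 5). The 13 condensin and cohesin genes had 9 higher and a median of 0.05, with the cohesin subunits Stag2 and Stag1 at 0.15 and 0.13, but without control 5 the median was −0.13 and these genes stood at 0.05 and 0.002.

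The list of 21 p53 targets and growth arrest genes was the 1 with 3 genes at an unadjusted p under 0.05 and all of these higher (3.14% of all genes were). Without control 5 it had 7 higher and 1 lower (Trp53), against 6.54% and 5.69% of all genes. Eda2r, a TNF receptor family member induced by p53, had 7.71, 8.49 and 8.25 CPM in controls 2, 3 and 5 and 10.5 CPM in mutant 1, 11.7 CPM in mutant 5 and a value between these in mutant 10. Pmaip1, which encodes the pro-apoptotic protein Noxa, had 2.61, 2.63 and 2.02 CPM against 3.62, 5.11 and 3.84 CPM. Btg2, an antiproliferative gene named after its values were seen, had 42.1, 43.1 and 53.8 CPM against 55.3, 64.8 and 67.1 CPM. In all 3 the groups did not overlap, with mutants higher, against 6.61% of all genes tested. These 3 were picked from the list for their small p, so the gap between their groups is no separate result. Their log2 fold changes were 0.44 (SE 0.12), 0.79 (SE 0.22) and 0.43 (SE 0.13), and none passed the adjusted threshold (edgeR adjusted p 0.582, 0.587 and 0.667). Over the whole list 14 genes were higher and 7 lower in sign, with a median of 0.04. The summed level of 10 macrophage genes was also higher in mutants, 154 to 174 CPM against 99.3 to 123 CPM in controls, with 8 of the 10 at an unadjusted p under 0.05 and 0 past the adjusted threshold in edgeR (C1qa and C1qb in DESeq2). Its part in these values was not tested. Without control 5, DESeq2 gave an adjusted p under 0.05 to 5 of the 172 genes, a share close to the 2.52% of all genes in that fit, named here after their values were seen: Btg2 (0.55) and Ccng1 (0.26), both p53 targets, were higher, and the licensing factor Cdc6 (−0.44), Mcm8 (−0.50) and the cytokinesis kinase Cit (−0.43) were lower. In edgeR the same 5 had adjusted p values from 0.0867 to 0.231.

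The genes most like Mki67 over the 6 hearts, outside all the lists, were Iqgap2 (Pearson r of log2 CPM 0.999), Polr1a (0.998), Kpnb1 (0.998), Atad5 (0.998) and Arhgap11a (0.997). They share the low value in control 5 and long transcripts of 4958 to 9216 bases, and over the 5 other hearts r was 0.989 to 0.997. The values are the highest of all genes tested over few hearts and are given as a description.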

How the data were processed

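RNA of 6 whole E13.5 mouse hearts (3 mutant, 3 control, 1 heart per library, grouped by their titles) was sequenced as paired reads from TruSeq libraries. Per the study's methods, the authors trimmed the reads with Trim Galore, aligned them with STAR to mm10 and assigned uniquely mapped reads to genes with featureCounts, while the submitters' processing notes name HTSeq and DESeq2. The strand setting is not given in the sources used here. The authors deposited raw counts per gene and heart. Their deposited FPKM, on which the methods are silent, equal the count over a length fixed for each gene and over the total of the heart (largest relative deviation 6.1e-14). A table of mean FPKM per group and second copies of both tables without gene names were not used. All 46983 genes listed carry a symbol.

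Counts were tested with edgeR 4.0.16 (R 4.3.3): TMM normalization, filterByExpr at its defaults (count minimum 10, total 15), the quasi-likelihood F test, two-sided, no covariate, Benjamini-Hochberg adjustment over all genes tested and a threshold of 0.05. CPM are TMM-normalized, and levels between genes use FPKM. The SE is the log2 fold change divided by the root of F. All 41 genes passed the filter, as did 17473 genes in all. The same fit was run beforehand on simulated counts with 200 changed genes. Those changes were larger than any fold change of the 41 genes, so that run does not bear on differences of the size reported here. Total counts per heart were 44244665 to 56373393, and reads carry no molecular identifiers. The members, the wider lists and the tests were chosen with earlier results of these data known. The genes named are Wt1, the 41 genes, in each wider list those past the adjusted threshold or otherwise the 2 with the smallest edgeR p, and the 5 outside the lists most correlated with Mki67; others were chosen after their values were seen. Alternatives were DESeq2 1.42.0, its size factors in edgeR, no filter, a stricter filter (1 CPM in at least 3 hearts), removal of each heart's loess trend with gene length, Xist as a covariate and each heart left out. Added after the data were seen were removal of the trend with the longest transcript, both removals and DESeq2 without control 5, and the omission of 2 hearts of high erythroid markers. Annotation is GENCODE M21 (GRCm38), matched for 46488 genes, and promoter sequence is RefSeq on GRCm38.p6, with the first window listed used where a gene has several.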

Additional observations from a re-analysis of the deposited data

How the results depend on the processing

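No paired analysis was made, because the titles pair no mutant with a control heart. Replicate number 5 occurs in both groups and is not known to mark a pair. No setting but DESeq2 without control 5, with 1 gene (Mcm4), put a cell cycle gene past the adjusted threshold. At an unadjusted p under 0.05 the 41 genes gave 0 with all hearts, 1 with gene length removed, 1 with transcript length removed, and 0 to 9 with 1 heart left out (9 without control 5, 0 without any other). Without control 5 they gave 14 and 15 under the 2 length removals and 13 in DESeq2, and 15 without the 2 hearts of high erythroid markers, where their median was −0.15. Those hearts held the lowest control sum and the highest mutant sum of the 41 genes, which favours lower mutant values once both are left out. The median over the 41 genes was −0.11 to 0.03 with 1 heart left out. Over all genes, the adjusted count was 0 with all hearts, 132 in DESeq2, 34 with no filter, 6 and 5 with gene and transcript length removed, 0 to 44 with 1 heart left out (44 without control 5), 41, 36 and 447 under the length removals and DESeq2 without control 5, and 9 without the 2 erythroid-high hearts. The unadjusted count was 1002, and 619 to 2179 with 1 heart left out (2179 without control 5, 666 without mutant 5, 619 without mutant 10), 2363, 2388 and 2265 under the same settings without control 5, and 1709 without the 2 hearts. The wider lists went from 0 to 5 adjusted calls in DESeq2 without control 5, and from 8 unadjusted calls to between 4 and 36 with 1 heart left out (4 without control 2, 36 without control 5, 5 without mutant 1 or mutant 5), 43, 44 and 36 without control 5, and 39 without the 2 hearts. The cause was not tested.

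Of the 41 log2 fold changes, 11 kept their sign with each heart left out. Those that did not ranged, with 1 heart left out, as follows: Mki67 −0.30 to 0.14, Top2a −0.17 to 0.24, Ccnd2 −0.02 to 0.27, Ccne1 −0.17 to 0.03, Ccne2 −0.07 to 0.08, Ccna2 −0.07 to 0.03, Ccnb1 −0.11 to 0.01, Cdk4 −0.06 to 0.07, Cdk6 −0.07 to 0.20, Cdk2 −0.08 to 0.003, Cdk1 −0.09 to 0.02, Cdkn2c −0.05 to 0.17, Mcm2 −0.27 to 0.06, Mcm3 −0.21 to 0.11, Mcm4 −0.32 to 0.03, Mcm5 −0.20 to 0.06, Mcm6 −0.21 to 0.01, Mcm7 −0.19 to 0.05, Rrm1 −0.17 to 0.09, Rrm2 −0.14 to 0.05, Aurka −0.12 to 0.06, Aurkb −0.02 to 0.14, Plk1 −0.32 to 0.02, Bub1b −0.25 to 0.04, Mad2l1 −0.12 to 0.05, Cenpa −0.40 to 0.001, Cenpe −0.25 to 0.22, Cenpf −0.19 to 0.25, Kif11 −0.11 to 0.05 and Kif20a −0.12 to 0.08, and Wt1 itself −0.33 to 0.16. Signs also turned with no filter for Cdk4 (0.01), Rrm1 (0.005), Aurka (0.01) and Kif20a (0.01), with gene length removed for Cdk4 (0.01) and Cdkn1b (−0.002), and with Xist as a covariate for Top2a (−0.01), Cdk4 (0.03), Mad2l1 (0.005), Cenpe (−0.06) and Cenpf (−0.04). Intervals and counts cover the spread of 3 hearts a group, and depth limits none of the 41 genes.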
